A study of Mus musculus with 28 samples.

Results

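The regions described here were those whose midpoint fell in no gene span on either strand and over 200 nt from every stop codon of the GENCODE vM21 comprehensive annotation on mm10. They were found by merging the peaks of 14 m6A-seq libraries that overlapped by at least 1 bp on the same strand. The 280967 peaks formed 33937 merged regions, and 3127 of them (9.21%, 95% Wilson interval 8.91 to 9.53) met the rule. A further 16 of the 3143 regions outside gene spans lay within 200 nt of a stop codon and were left out. Only the midpoint was placed, and distances were measured from it, so part of a region can lie inside a gene. Among the regions named below, those past Rbm15, Gm14286 and Ctps2 are examples that reached into the gene. The intervals given for shares of regions cover counting error only.

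N6-methyladenosine (m6A) is laid down on nascent RNA by a METTL3-METTL14 complex at short motifs centred on an A followed by C, most often GGAC, and in mRNA it is concentrated near stop codons and in the last exon. A peak that lies in no annotated gene can come from a transcript that runs on past its annotated end, from a transcript that starts upstream of or divergently from a gene, from an RNA missing from the annotation, or from a read placed at a copy of another gene. These are general sources of such peaks, and the values below do not assign a source to any single region.

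The study profiled RNA, labelled as poly(A) RNA in every sample, of cerebellum and cerebrum of newborn (P0, day 0 after birth) and 7-day-old (P7) F1 hybrids between the mouse strains C57BL/6J and PWK/PhJ, here called C57 and PWK, asking how m6A depends on parental sequence and parent of origin. In the F1i cross the mother was PWK and the father C57, and in the F1r cross the mother was C57 and the father PWK. The 14 immunoprecipitated (IP) libraries, each with its own input library, comprised cerebellum at P0 (n = 2, both male, 1 of each cross), cerebellum at P7 (n = 4), cerebrum at P0 (n = 4) and cerebrum at P7 (n = 4), the latter 3 groups with both sexes of both crosses. Every animal thus carried 1 C57 and 1 PWK set of autosomes, and there was no pure-strain control. Males had only their mother's X chromosome, from PWK in F1i and from C57 in F1r. By the study's sample sheet, all cerebellum libraries were prepared in a first m6A-seq batch and all cerebrum libraries in a second, and the effects of tissue and preparation cannot be told apart. Whole tissue was used, in which fewer cells of a type and less RNA per cell cannot be told apart.

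The lists held 16687 to 26208 peaks, most of them in the P0 cerebrum (23396 to 26208), and the depth recovered from the peak scores ranged from 0.569 to 1.58 times the mean library. Of 16 genes listed as cerebellar, 9 to 12 carried a region in their own span in each cerebellum library and 5 to 7 in each cerebrum library, against 5 to 9 and 14 to 16 for 16 genes listed as cerebral. At the Y-linked genes Kdm5d, Ddx3y, Eif2s3y and Uty, the P7 cerebrum F1r library labelled male held no region and the F1r library labelled female held at least 1, so results that pair the crosses are also given without the P7 cerebrum pairs. The P0 male F1r and P7 male F1i libraries of cerebellum held none there either. A region at Xist, which is expressed from the inactive X chromosome of females, was present in all 4 cerebrum libraries labelled male and in none of the 4 cerebellum libraries labelled male. Replicates are separate samples of a group in the labels. Where nothing ties them to separate animals, p-values measure only the spread between these samples.

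Several sequences show what these regions look like. Each is read 5′ to 3′ along the region's own strand from mm10, and capitals mark every GGAC. The first pair, at chr15:89765983-89766083 on the plus strand and chr2:39420603-39420703 on the minus strand, belongs to the strongest regions far from any gene and is shown for its likeness. The 2 windows had the same base at 98.0% of their positions. Both regions matched the transcript of the non-coding gene 2900097C17Rik at another place, as given below.

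Acr region: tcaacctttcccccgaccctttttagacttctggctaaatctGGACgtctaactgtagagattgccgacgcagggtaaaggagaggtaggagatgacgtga
Gm13454 region: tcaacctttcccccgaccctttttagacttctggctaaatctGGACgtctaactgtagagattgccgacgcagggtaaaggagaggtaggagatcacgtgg

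The next set shows a strong region past a long gene (chr14:119875258-119875358, plus), a region 280 nt ahead of an annotated start (chr13:24801321-24801421, plus), a region ahead of a microRNA gene (chr2:180893539-180893639, plus), a region of cerebrum lists only in a stretch without genes (chr14:111568645-111568745, minus), the top-ranked region of the cerebrum lists (chr7:104379939-104380039, plus) and a region found more often in F1r (chr2:157544160-157544260, minus).

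Hs6st3 region: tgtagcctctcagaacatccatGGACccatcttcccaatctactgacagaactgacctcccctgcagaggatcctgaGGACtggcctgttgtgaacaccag
Armh2 region: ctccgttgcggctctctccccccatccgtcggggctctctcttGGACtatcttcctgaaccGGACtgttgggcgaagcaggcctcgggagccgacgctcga
Mir124a-3 region: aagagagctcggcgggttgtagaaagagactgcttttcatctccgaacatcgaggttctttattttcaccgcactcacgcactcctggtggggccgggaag
Gm22764 region: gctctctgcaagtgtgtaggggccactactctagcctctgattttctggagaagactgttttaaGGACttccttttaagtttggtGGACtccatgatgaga
Trim34b region: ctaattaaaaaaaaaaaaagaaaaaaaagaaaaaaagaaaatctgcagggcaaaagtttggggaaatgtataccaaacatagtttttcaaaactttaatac
Gm14286 region: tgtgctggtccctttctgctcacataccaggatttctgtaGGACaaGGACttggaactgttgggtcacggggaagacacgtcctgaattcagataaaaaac

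The following regions match the transcript of another gene or lie in a RefSeq mRNA exon. Only the 30 nt around the motif nearest to the strongest summit are shown for them: chr10:53475760-53475789 (plus), chr11:99932041-99932070 (plus), chr2:91929300-91929329 (plus) and chrX:163032534-163032563 (plus).

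Tmem229b-ps region: gtcctagctaagGGACatgaactctggggc
Gm11565 region: ggagcggagagcGGACcccagagagccctg
Chrm4 region: acagactccaggGGACtgaatcaattaatg
Ctps2 region: aaaacagctgaaGGACacctgtctcccctt

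The Armh2, Hs6st3, Gm22764 and Gm14286 windows each held 2 matches to GGAC, whereas the Mir124a-3 and Trim34b windows held none. The Trim34b window was 23.8% G or C and held, from its seventh base on, a stretch of A broken by single G, and the Armh2 window was 65.3% G or C. GGAC fell within 50 nt of the strongest summit in 1856 of the 3127 regions outside genes (59.4%) and in 20328 of all 33937 regions (59.9%), so its presence in a printed window is common to both. A match is a description of the window and does not mark a methylated base.

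Regions outside genes were densest just past gene ends. The distance from each midpoint back to the nearest same-strand gene end ranged from 1 nt to over 1 megabase, with a median of 10304 nt and quartiles of 1622 and 55962 nt, and 5 regions had no such end behind them. Of the 3127 regions, 579 (18.5%) lay within 1 kb past the end, 971 (31.1%) between 1 and 10 kb, 736 (23.5%) between 10 and 50 kb and 836 (26.7%) farther away. The same distance classes held 1.28%, 9.52%, 25.4% and 63.7% of the strand-specific sequence outside genes, which amounted to 2856 megabases. Density therefore fell from 15.8 regions per megabase within 1 kb to 3.57, 1.01 and 0.459 in the classes beyond, against 1.09 over all sequence outside genes. When the nearest same-strand gene end in either direction was taken, it lay behind the region in 2315 cases (74.0%), at a median distance of 6946 nt.

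**Figure D1:**
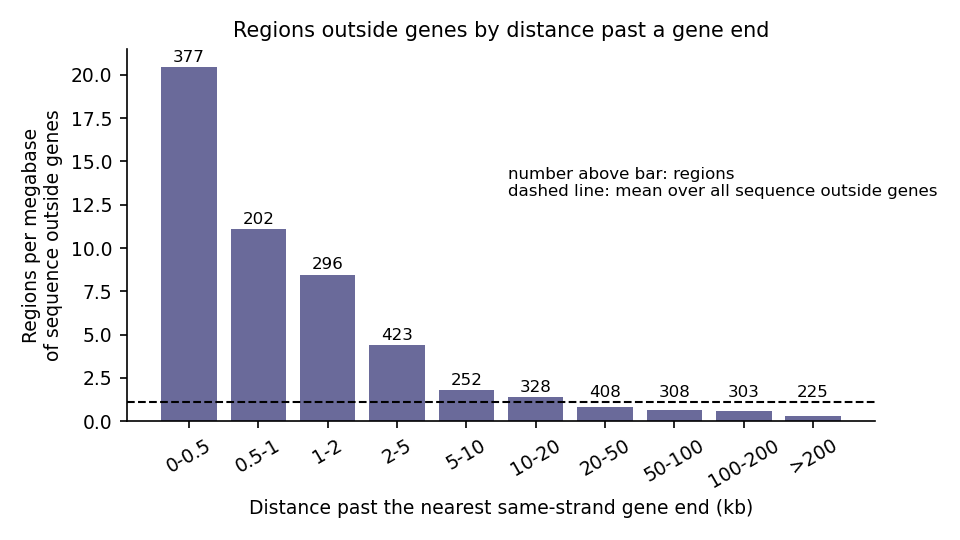
Number of regions outside genes per megabase of strand-specific sequence outside genes (vertical axis) by distance past the nearest same-strand gene end in kb (horizontal axis). Bars fall from 20.5 regions per megabase in the first 500 nt to 0.286 beyond 200 kb, and the dashed line marks the mean of 1.09.

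The first 10 kb past an end held 1550 regions (49.6%). When only protein-coding genes were allowed as the gene behind, the share was 32.9%. In the class from 1 to 10 kb, 694 of the 971 regions followed a protein-coding gene, 70 a processed pseudogene and 62 a long intergenic non-coding RNA (lincRNA). Within 1 kb the make-up was different: 292 of 579 followed a protein-coding gene and 172 a processed pseudogene, a DNA copy of a spliced mRNA that was inserted elsewhere in the genome. Over all annotated genes, 259 of 21951 protein-coding genes (1.18%), 154 of 9940 processed pseudogenes (1.55%) and 31 of 5854 lincRNA genes (0.530%) had such a region within 1 kb past the end. Of the 636 protein-coding genes with a region within 10 kb past the end, 528 (83.0%) also carried a region inside their own span. The share among all protein-coding genes is not given, so the 83.0% has no baseline here.

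Gene starts were a second place of high density. A same-strand start lay within 1 kb ahead of 225 regions (6.44 per megabase of such sequence). An opposite-strand start lay within 1 kb behind 388 regions (11.1 per megabase), the position of RNA that runs divergently from a promoter, and the gene was protein-coding in 347 of them. Among these 388 divergent regions, 273 had no repeat base within 50 nt of the strongest summit, 195 (50.3%) had GGAC within 25 nt of it and 38 were in all 14 lists. Only 72 of the 388 also lay within 10 kb past a same-strand gene end.

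RefSeq, a second annotation on the same build, placed a gene over 1045 of the 3127 midpoints (33.4%) on the same strand, and over 222 more on the opposite strand alone. A same-strand RefSeq exon covered 788 (25.2%), of which 399 were exons of an mRNA. The other 389 lay only in exons of no mRNA, which include exons of pseudogenes. Exons of curated transcripts covered 267, and the rest lay only in predicted models or in exons without a curated transcript. RefSeq exons covered 116 of the 244 regions that were in every list (47.5%, Wilson interval 41.4 to 53.8) but 150 of the 943 that were in a single list (15.9%, 13.7 to 18.4). Within 1 kb past a protein-coding gene, 95 of 292 regions (32.5%) lay in a RefSeq mRNA exon.

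A sizeable group of these regions repeated the sequence of another gene. The 151 nt around the strongest summit matched a GENCODE transcript of a gene at another place with at least 95% identity over at least 100 nt, and with under 50% repeat bases near the summit, in 316 of 3127 regions (10.1%). For 254 of them the other gene was protein-coding, and the match had no mismatch in 94. That other gene carried a region of its own in 252 of the 254 cases, and of 1935 instances of such a region in a list, 1792 (92.6%) had a region in the copied gene in the same list. A region anywhere in the span of the other gene was counted, not only one at the matching stretch. The corresponding shares for genes without such a copy are not given. Copies made up 152 of the 205 regions within 1 kb past a pseudogene (74.1%) but 7 of the 292 within 1 kb past a protein-coding gene (2.40%). Aligned back to the genome, 544 of the 3127 windows (17.4%) had a mapping quality of 0, which means that another place fitted as well, against 1066 of the other 30810 regions (3.46%). The reads had been placed once each by the authors' aligner, so reads of such a window can have come from either place. Setting aside copies, RefSeq exons, windows of mapping quality 0 and everything within 10 kb past a gene end left 975 regions (31.2%).

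Chromosome Y held 22 regions outside genes, 15 of them with a mapping quality of 0. Of the 22, 13 were present in at least 1 of the 4 libraries labelled female outside the P7 cerebrum, none of which held a region at the Y-linked genes named above.

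Regions outside genes were found in fewer lists than the others. The median was 3 of 14 lists against 7 for the other 30810 regions. A single list held 943 (30.2% against 16.9%), more than 3 lists held 1390 (44.5% against 67.0%) and all 14 held 244 (7.803% against 29.1%). Regions within 1 kb past a gene end were in all lists more often than those farther out, with 85 of 579 (14.7%), followed by 62 of 971 (6.39%), 44 of 736 (5.98%) and 52 of 836 (6.22%). They were also narrower than other regions, with a median width of 156 nt against 225 nt.

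**Figure D2:**
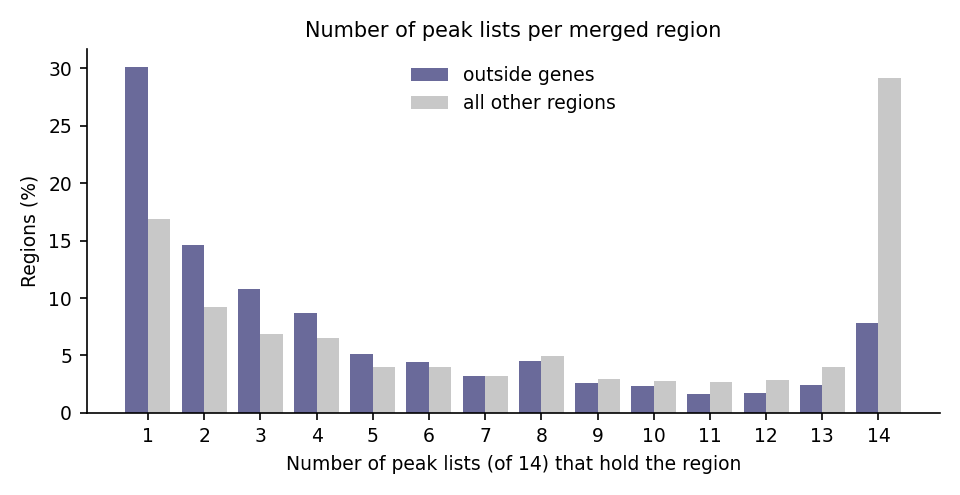
Share of regions (vertical axis, %) by the number of the 14 peak lists that held them (horizontal axis), for regions outside genes and for all other regions. Regions outside genes are most often in 1 list (30.2%), and other regions most often in all 14 (29.1%).

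Peaks in these regions were weaker and richer in repeats than other peaks of the same list. Their mean percentile by −log10 q within the list, where 100 is the strongest, was 32.02 to 37.2 over the 14 libraries, against 50.5 to 51.3 for other peaks. The mean difference was -16.6 percentile points (exact permutation of signs over 14 libraries, two-sided p = 0.000122, adjusted p = 0.000203 over 5 comparisons, lower in every library). The share of repeat-masked bases within 50 nt of the summit was 24.8% ± 3.77 (SD, n = 14) against 8.66% ± 1.94, a difference of 16.1 percentage points with the same p and adjusted p. In all, 925 strongest summits (29.6%) lay in windows of at least 50% repeat and 1467 (46.9%) in windows with none.

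The m6A motif was found at their summits about as often as at other summits. GGAC within 25 nt of the summit, on the same strand, was present at 51.6% to 57.3% of summits outside genes in the 6 cerebellum libraries and at 40.3% to 47.8% in the 8 cerebrum libraries. In windows moved by 300 nt to either side it was present in 16.5% to 18.5%. The mean difference from the moved windows was 31.4 percentage points (exact permutation of signs, two-sided p = 0.000122, adjusted p = 0.000203), which is the smallest p that 14 libraries allow, as is the p for strength and repeats. The difference from other peaks was 0.83 points (p = 0.238, exact permutation of signs, adjusted p = 0.238), and it passed 0.05 or changed sign under several other settings. The 6 cerebellum libraries averaged 55.5% ± 2.18 (SD) at summits outside genes and the 8 cerebrum libraries 43.7% ± 2.56, a difference of -11.8 points with no overlap between the tissues (exact permutation test, two-sided p = 0.000333, adjusted p = 0.000416). Other peaks of the same libraries gave 52.5% ± 1.26 and 44.5% ± 1.15. The broader DRACH pattern was at 91.4% to 95.2% of summits in every library, with means of 92.9% ± 1.29 in cerebellum and 92.9% ± 0.554 in cerebrum. Its mean excess over the moved windows was 26.0 percentage points, so most moved windows held it as well.

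**Figure D3:**
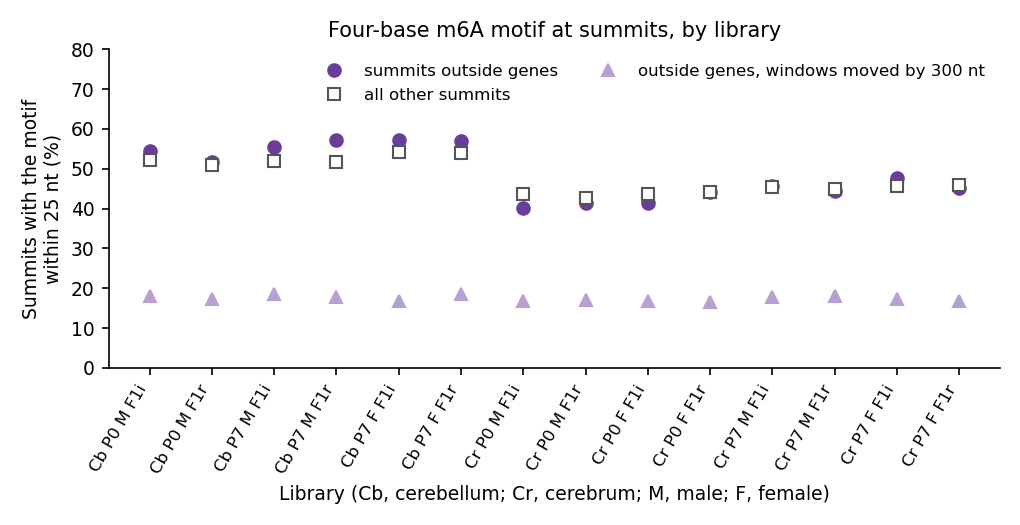
Share of peak summits with GGAC within 25 nt on the same strand (vertical axis, %) in each of the 14 libraries (horizontal axis), for peaks in regions outside genes, for all other peaks and for windows moved by 300 nt. Cerebellum libraries lie at 51.6% to 57.3%, cerebrum libraries at 40.3% to 47.8% and moved windows at 16.5% to 18.5%.

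Other regions were not split by number of lists for GGAC, and 558 of the 943 regions in a single list were in a P0 cerebrum list. That group had the lowest GGAC share (41.8% at summits outside genes, 43.6% at others). GGAC near the strongest summit went with the number of lists: 138 of the 244 regions in all lists had it (56.6%, Wilson interval 50.3 to 62.6) against 357 of 943 in a single list (37.9%, 34.8 to 41.0). It varied little with distance, at 39.9%, 42.7%, 45.8% and 44.0% in the 4 classes from the gene end outwards, and was found at 145 of 316 copies (45.9%) and 1210 of the other 2811 (43.0%).

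The share of a list that lay outside genes was highest in the P0 cerebrum, and so was the length of the lists. In cerebellum it was 5.04% and 5.32% at P0 and 4.00% to 4.601% at P7, and in cerebrum 6.62% to 7.15% at P0 and 4.58% to 5.53% at P7. The tissues overlapped, and the cerebrum exceeded the cerebellum by 1.34 percentage points (5.98% ± 1.03, n = 8, against 4.65% ± 0.473, n = 6, exact permutation test, two-sided p = 0.0157, adjusted p = 0.0571 over 4 comparisons). The groups held unequal shares of P0 libraries. Among P7 libraries the means were 5.07% in cerebrum and 4.38% in cerebellum, and the tissues overlapped. With the P7 peaks merged on their own, which changes the regions, the difference was 0.75 points (n = 4 each, exact permutation p = 0.0286, the smallest possible, not adjusted). In the regions merged from all libraries, the cerebrum was higher in 6 of 6 libraries matched for age, sex and cross, by 0.223 to 1.83 points. Within the cerebrum the ages did not overlap, and the share fell by 1.83 points from P0 to P7 (6.90% ± 0.221 and 5.07% ± 0.425, n = 4 each, exact permutation p = 0.0286, the smallest this design allows, adjusted p = 0.0571). Neither the tissue difference over all libraries nor the age difference passed after adjustment. When every list was cut to its 16687 strongest peaks, the length of the shortest, the tissue difference was -0.02 points (p = 0.938, exact permutation) and the age difference -0.36 points (p = 0.0857, exact permutation). With peaks scaled to equal depth instead, the tissue and age differences were 1.14 and -1.34 points.

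**Figure D4:**
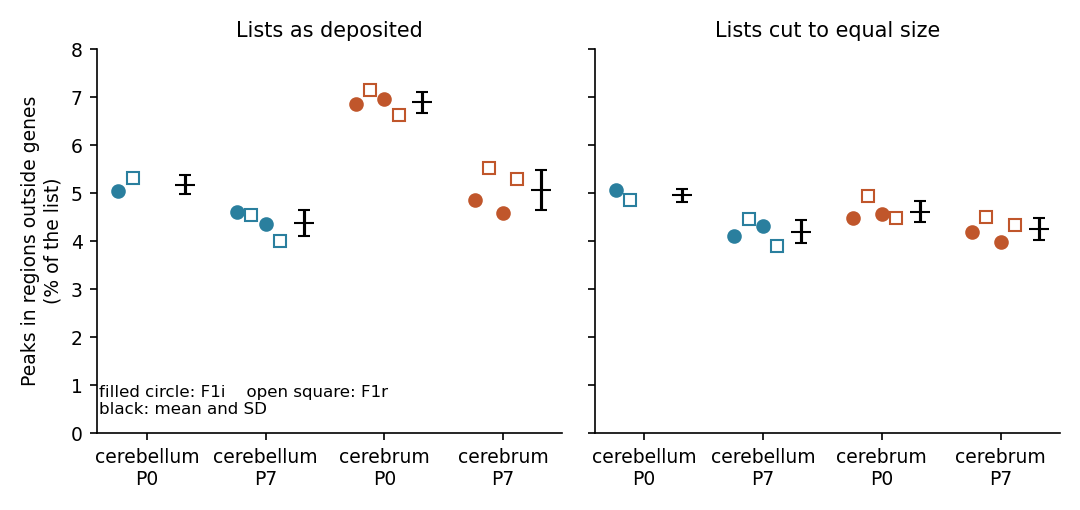
Peaks in regions outside genes as a share of each list (vertical axis, %) by tissue and age (horizontal axis), for the lists as deposited and for lists cut to equal size. Points are libraries (filled circle, F1i; open square, F1r), black marks the mean and SD. The P0 cerebrum stands at 6.62% to 7.15% in the deposited lists and at 4.48% to 4.95% in lists of equal size.

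The shares were also split by distance, which was not among the planned comparisons. By distance, the fall from P0 to P7 in the cerebrum was largest from 1 to 10 kb past a gene end, from 2.23% ± 0.118 of the peaks to 1.39% ± 0.0872, with no overlap (exact permutation p = 0.0286, again the smallest possible, adjusted p = 0.0457 over 8 comparisons). The corresponding shares were 1.52% and 1.22% within 1 kb and 1.45% and 1.02% from 10 to 50 kb, with the same p and adjusted p, and 1.68% and 1.42% beyond 50 kb (exact permutation p = 0.0571). Between tissues the cerebrum was higher by 0.39 points beyond 50 kb (adjusted p = 0.0133, exact permutation) and by 0.34 points from 10 to 50 kb (adjusted p = 0.0426), while the differences of 0.48 points from 1 to 10 kb (adjusted p = 0.0528) and 0.13 points within 1 kb (adjusted p = 0.124) did not pass. In lists of equal size the share from 1 to 10 kb was 1.33% ± 0.0935 at P0 and 1.13% ± 0.0495 at P7, still without overlap, but no class passed after adjustment (adjusted p = 0.114 for both classes within 10 kb, exact permutation). The age change in cerebellum, with 2 P0 libraries, was -0.80 points, and it was not shown to differ from that in cerebrum (difference -1.02 points, exact permutation p = 0.242).

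Between the crosses, F1r exceeded F1i in 4 of 7 pairs matched for tissue, age and sex, by 0.17 ± 0.440 points on average (SD, n = 7 pairs, exact permutation of signs, two-sided p = 0.391). Without both P7 cerebrum pairs the mean was -0.03 points. The 2 pairs with the widest differences, 0.67 and 0.72 points, were those of the P7 cerebrum.

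Libraries of a tissue shared more regions outside genes than libraries of different tissues. The Jaccard index, the regions shared by 2 lists over those in either, averaged 0.4997 within and 0.327 between tissues (difference 0.173, exact permutation test of tissue labels, one-sided p = 0.000333, the smallest it can give). For the other regions the indices were 0.729 and 0.580. Of the 3127 regions, 1664 were in cerebrum lists only, 446 in cerebellum lists only and 1017 in both, with 558 of the cerebrum-only ones in a single P0 list. The cerebrum had 8 lists, longer on average, and the cerebellum 6. The same split is not given for other regions, so these counts do not measure tissue specificity.

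Presence in the 14 lists was compared between tissues by Fisher's exact test over all merged regions, with Benjamini-Hochberg adjustment at 0.05. Of 2883 regions outside genes that could be tested, 160 (5.55%) were called more often present in cerebrum, against 7.78% of all 24722 regions tested, and 31 (1.08%) in cerebellum, against 1.87%. An unadjusted p under 0.05 was given to 389. Present in every cerebrum and no cerebellum list were 87, and 13 were in every cerebellum and no cerebrum list (adjusted p = 0.0066, Fisher's exact test, for either pattern). Both shares were below those of all regions. In lists of equal size the counts were 74 and 63 of 1800 regions outside genes tested, against 6.21% and 4.18% of all regions tested. Leaving out any single cerebellum library gave counts of 89 to 98 and 14 to 18. At P7 alone, where 4 lists a tissue allow no smaller Fisher p than 0.0286, none was called, and 169 and 41 regions outside genes were in all 4 lists of cerebrum or cerebellum and none of the other. No share over all regions stands beside these counts, those with a library left out or the 87 and 13 above. They therefore do not set regions outside genes apart from others.

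The regions in all 8 cerebrum and no cerebellum lists that were named by rank lay at varied places. The first, at chr7:104379945-104380059 on the plus strand, 43.1 kb past Trim34b, was the top-ranked or nearly top-ranked peak of every cerebrum list (mean percentile 99.996), although its fold enrichment over local background was only 8.74 to 18.2, with a median of 14.6. The second lay on the minus strand at chr14:111568606-111568773, 397 kb past the small nuclear RNA gene Gm22764, with a fold of 27.0 to 63.0 and a median of 39.2. The nearest gene start behind it on the opposite strand was that of Slitrk5, a neuronal membrane protein gene, 106408 nt away.

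The third lay 192 nt past Rbm15, whose protein is part of the complex that recruits the m6A methyltransferase, at chr3:107324865-107325593 on the minus strand. Its fold was 60.4 to 79.1 in the 4 P0 cerebrum libraries and 25.4 to 37.3 in the 4 at P7, without overlap, and RefSeq placed a non-coding exon of Rbm15 there. Rbm15 itself carried a region inside its span in all 14 lists, 6 of cerebellum and 8 of cerebrum. The next, at chr10:72297171-72297345 (minus), was 100% repeat with a mapping quality of 0 and folds of 4.11 to 16.9. The last of the 5, at chr2:180893443-180893890 (plus), lay 374 nt ahead of Mir124a-3, a gene for miR-124, the most abundant microRNA of neurons, with folds of 21.8 to 36.2 and a median of 25.8.

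Of the 13 regions in all 6 cerebellum and no cerebrum lists, the 5 of highest rank were named, and 4 of these 5 followed a processed pseudogene by 27 to 314 nt. These were Gm4366 (chr7:116824371-116824541, minus, fold 10.8 to 35.8), Gm5561 (chr1:179520281-179520421, minus, 5.68 to 8.01), Gm15770 (chr5:142852521-142852655, minus, 9.49 to 24.8) and Tmem229b-ps (chr10:53475725-53475841, plus, 8.99 to 17.4). The Gm5561 region was 90.1% repeat, with a mapping quality of 4. The Gm15770 and Tmem229b-ps windows matched transcripts of Mrpl12, a mitochondrial ribosomal protein gene, at 97.3% and of Tmem229b at 96.7%. Both of those genes carried a region somewhere in their span in all 14 lists. The fifth, at chr11:99932025-99932107 (plus, fold 14.9 to 24.1), 96 nt ahead of Gm11560, matched Ybx1, an RNA-binding cold shock protein gene, at 97.7%. Ybx1 carried a region somewhere in its span in all 6 cerebellum and in none of the 8 cerebrum lists. Whether the regions of Mrpl12, Tmem229b and Ybx1 lay at the stretch that the copy matches was not tested.

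Between ages, the rule asked for presence in all 4 lists of an age and none of the other in the cerebrum, with no test. It was met at P0 by 186 of 2681 regions outside genes (6.94%), against 4.79% of all 30237 regions, and at P7 by 19 (0.709%), against 0.496%. In lists of equal size 44 (3.19%) and 30 (2.17%) regions outside genes met it, against 2.04% and 1.42% of all regions, and at equal depth 122 (5.13%) and 23 (0.968%), against 3.57% and 0.721%. Of the 186 found at P0 only, 124 (66.7%) lay within 10 kb past a gene end, against 49.6% of all regions outside genes. A RefSeq exon covered 35 of the 186 (18.8%) and 10 of the 19 found at P7 only, and 68 of the 186 (36.6%) had GGAC near the strongest summit.

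The strongest P0-only region lay at chr8:11636013-11636667 (plus), 583 nt upstream of the opposite-strand start of Ankrd10, with folds of 29.7, 45.6, 50.6 and 17.7 in the 4 P0 cerebrum libraries and 7.396 in 1 P0 cerebellum library. The others followed 9330159F19Rik by 1.73 kb (chr10:29232199-29232818, plus, fold 13.6 to 18.8), Tnrc6c, an Argonaute partner in microRNA silencing, by 953 nt (chr11:117764064-117764720, plus, 10.8 to 17.8) and Lrrn2, a leucine-rich repeat neuronal protein gene, by 529 nt (chr1:132940227-132940841, plus, 12.8 to 29.6). All 3 genes carried a region in their own span in all 14 lists. The Lrrn2 region was also in both P0 cerebellum lists and in none at P7.

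Of the 4 strongest P7-only regions, 2 closely followed a gene. The one 579 nt past Chrm4, the M4 muscarinic acetylcholine receptor, at chr2:91929157-91929378 (plus) had folds of 6.87 to 12.2 in the P7 cerebrum and was in no cerebellum list. The one 804 nt past Nt5c1a, a cytosolic nucleotidase, at chr4:123216890-123217268 (plus) had folds of 10.2 to 20.4 in the 4 P7 cerebrum and 5.52 to 10.9 in the 4 P7 cerebellum libraries and was in none of the 6 P0 lists. Nt5c1a itself carried a region in 1 list. The other two lay at chr2:19657026-19657165 (minus), 657 nt upstream of the opposite-strand start of Otud1 (fold 11.6 to 21.0), and at chr15:85606335-85606550 (minus), 23969 nt ahead of Wnt7b (7.15 to 13.03), which encodes a developmental signalling ligand.

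The crosses were compared by asking for presence in a cross but not the other in at least 5 of the 7 pairs, with no pair the other way. No region outside genes met it for F1i, against 0.0295% of all 33937 regions, and 3 (0.0959%) did for F1r, against 0.0354%. Each had 5 pairs for F1r and none for F1i, and the count was 0 without the male P0 pair of either tissue or without either P7 cerebrum pair. At chr2:157544140-157544389 (minus), 2 nt past the antisense RNA gene Gm14286 and 15814 nt from the opposite-strand start of the imprinted gene Nnat, folds were 5.21 to 16.0 in all 7 F1r libraries and 8.12 and 10.9 in the 2 P7 cerebellum F1i libraries, the only F1i libraries that held it. At chrX:163032410-163032658 (plus), 26 nt past Ctps2, a CTP synthase gene, the 7 F1r libraries gave 6.13 to 17.7, and the F1i libraries that held it were females of the P7 cerebellum (11.8) and the P0 cerebrum (13.8). In males the cross sets the strain of the X chromosome, so cross and X strain cannot be told apart there. The third, at chr5:24218301-24218598 (plus), had a mapping quality of 0 and folds of 4.03 to 7.52.

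**Figure D5:**
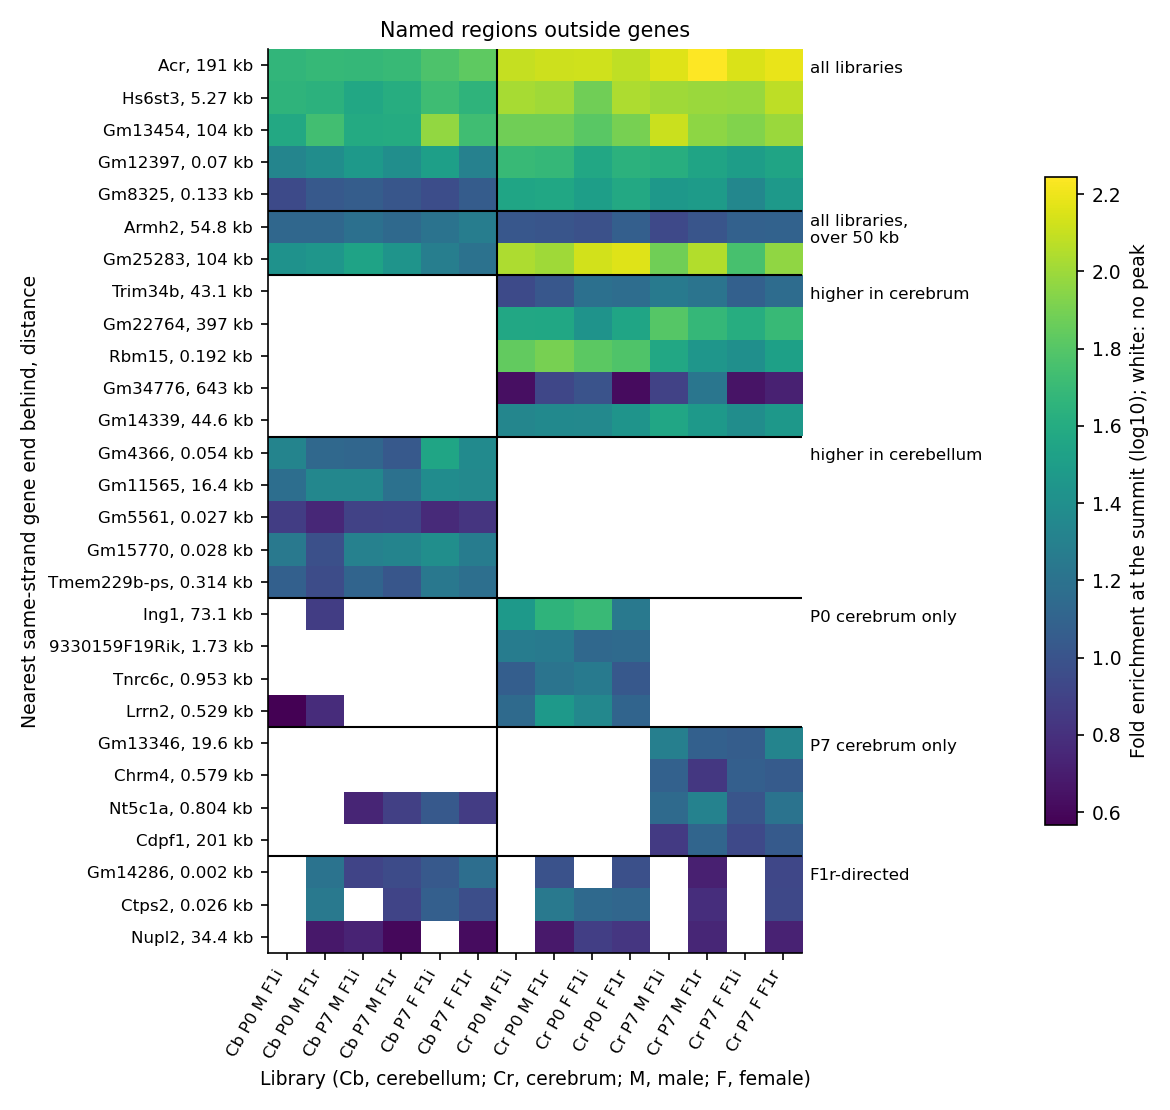
Fold enrichment at the summit (colour, log10; white where the list holds no peak) of the named regions outside genes (rows, by the nearest same-strand gene end behind and its distance) in the 14 libraries (columns). Rows are grouped by the rule that named them, and a vertical line separates cerebellum from cerebrum, with the Acr region highest at 175 in a cerebrum library.

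Among the strongest regions present in every list, those past Gm12397 and Gm8325 closely followed a processed pseudogene and had a mapping quality of 0. The Gm12397 region (chr4:40912436-40912906, minus, 70 nt past the end, fold 19.98 to 50.04) matched Kdm2b, a histone demethylase gene, without mismatch, and Kdm2b carried a region of its own in all 14 lists. The Gm8325 region (chr3:60877491-60877949, plus, 133 nt past the end, fold 8.82 to 37.9) matched Gm20431.

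The region that ranked first, at chr15:89765823-89766177 (plus), lay 191 kb past Acr and reached a mean percentile of 99.8. Its fold was 46.7 to 67.4 in cerebellum (median 49.2) and 122 to 175 in cerebrum (median 137). It matched the lincRNA 2900097C17Rik over the window without mismatch, at a mapping quality of 0, and 2900097C17Rik carried a region in all 14 lists. The region at chr2:39420469-39420703 (minus), 104 kb past Gm13454, matched the same lincRNA at 97.4% but mapped uniquely, and its fold was 37.7 to 94.1 in cerebellum and 64.9 to 128 in cerebrum. Their likeness is plain in the first pair of sequences above.

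The region 5.27 kb past Hs6st3, a heparan sulfate sulfotransferase gene, was the strongest of those in all lists with a unique place and no copy (chr14:119874539-119875625, plus, mean percentile 97.7). Its fold was 37.3 to 52.9 in cerebellum and 75.4 to 119 in cerebrum, no RefSeq gene covered it, and Hs6st3 carried a region in its span in all 14 lists. A further 2 regions over 50 kb past a gene end were named. The region 54.8 kb past Armh2 and 280 nt ahead of the start of BC005537 (chr13:24801192-24801562, plus) had higher folds in cerebellum (13.3 to 18.9) than in cerebrum (8.69 to 12.4). The region 104 kb past Gm25283 (chr6:47740812-47741152, plus, mapping quality 0) lay in an exon of the RefSeq non-coding gene Gm52861, with folds of 15.8 to 34.6 in cerebellum and 56.7 to 144 in cerebrum. These folds were not tested between tissues. The median fold of all other peaks was 8.03 to 9.37 in cerebellum and 10.4 to 11.7 in cerebrum libraries.

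Same-strand neighbours within 5 kb of each other formed runs. Of the 3127 regions, 1598 (51.1%) stood in 577 runs of 2 or more, and 58 runs held 5 or more. The longest run, 19 regions over 25.8 kb on chromosome 6, began 31080 nt ahead of Rny3, a small cytoplasmic RNA gene. It had 4 to 16 regions in each list, and 14 of its 19 regions had a mapping quality of 0. The run of 15 regions over 12.4 kb on chromosome 12 began 1058 nt past Gm20498 and 24622 nt ahead of Slc8a3, a sodium-calcium exchanger gene that carried a region in its own span in all 14 lists. It had 8 to 12 regions in each P0 cerebrum list, 4 or 5 in each P7 cerebrum list and 0 to 2 in each cerebellum list, and 14 of the 15 lay in repeats. The runs of 13 regions on chromosome 4 past Gm10601 and of 9 regions on chromosome 2 past Gm14435 consisted of regions with a mapping quality of 0 only.

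Over all protein-coding genes, 819 of 21951 (3.73%) had a region outside genes within 50 kb past their end. In the gene lists there were 0 of 16 cerebellar genes, 2 of 16 cerebral genes, 1 of 31 imprinted genes, 3 of 20 genes of neuronal activity and synapses and 1 of 17 glial genes, with 10 regions in all. The imprinted case was the most constant of them: a region at chr15:72547202-72547457 (minus), 42.3 kb past Trappc9 and 989 nt ahead of the GENCODE start of Kcnk9, an imprinted potassium channel gene, lay in a RefSeq mRNA exon of Kcnk9. It was present in all 14 lists, with folds of 4.70 to 9.87 in cerebellum and 10.9 to 17.5 in cerebrum. The region 170 nt past Rbfox1, a neuronal splicing factor gene, lay in a RefSeq mRNA exon of Rbfox1 and was in 12 lists, all 8 of cerebrum (fold 4.57 to 10.7) and 4 of cerebellum (3.85 to 4.53). The region 2.47 kb past Fezf2, which specifies deep-layer cortical neurons, was in 3 of the 4 P0 cerebrum lists (5.86 to 10.4) and in no other. The 2 regions past Tbr1, the 3 past Grin2b and those past Robo1 and Mog were in 1 to 3 lists each. Both Tbr1 regions were 100% repeat, with mapping qualities of 11 and 0.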

How the data were processed

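Strand-specific m6A-seq peak lists of 14 IP libraries were analysed, and the 14 input libraries were not used on their own. As the methods and processing notes give it, the authors trimmed adapters with cutadapt, processed reads and extracted molecular identifiers with fastp 0.21.0, aligned them with hisat2 2.1.0 to an N-masked mm10 genome keeping 1 place per read, removed duplicates by molecular identifier and called peaks per library and strand with MACS2 2.1.2 (extension size 80 nt). The control used in calling is not given in the sources used here. The deposited lists give a fold enrichment (a ratio) at the summit and −log10 p and −log10 q values as MACS2 wrote them. They give no read counts per region, so tests used only presence, share of a list or rank within it, and folds are given as values with no test. The labels give poly(A) RNA for every sample, while the methods also describe RNA depleted of ribosomal RNA.

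Same-strand peaks sharing 1 bp or more were merged, and each merged region was placed by its midpoint against GENCODE vM21, whereas the methods name another GENCODE release. Copies were sought with blastn 2.17.0 and mapping quality with minimap2 2.31. Exact permutation tests, Fisher's exact tests and Benjamini-Hochberg adjustment at 0.05 used scipy 1.17.1 in Python 3.11.15, and the merging and tests were tested on simulated data. Named regions were the 6 strongest present in all lists, the 4 strongest over 50 kb from a gene end, 5 each way by tissue, 4 each way by age and those directed by cross, ranked by mean percentile of −log10 q. Of these, 1 region is not reported here. The regions and gene lists were chosen with earlier results of these data known. Relative depth came from steps in the deposited scores, of which 99.6% were whole reads within 0.05.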

Additional observations from a re-analysis of the deposited data

How the results depend on the processing

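The lower strength and higher repeat share of peaks outside genes, their GGAC excess over moved windows and the greater likeness of lists of a tissue kept direction and call under every alternative run. In lists cut to equal size, the share outside genes then differed by -0.0157 points between tissues and by -0.36 between ages, the age change between tissues was 0.40, tissue calls were 74 and 63 in place of 160 and 31, age counts 44 and 30 in place of 186 and 19, and the F1r count 0 in place of 3. In equal lists (by distance, chosen after seeing the data) the tissue difference was -0.0826 points within 1 kb and -0.0140 from 1 to 10 kb, and the age difference beyond 50 kb was 0.0479. Scaling to equal depth gave 122 P0-only regions. The cross difference was -0.0334 without both P7 cerebrum pairs.

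GGAC at summits outside genes minus other summits was 1.75 points at a −log10 q of at least 5, 1.29 without regions within 10 kb past a gene end, 0.44 for DRACH and 1.63 in a window of 50 nt, each with p under 0.05 by exact permutation, but -0.87 without copies (chosen after seeing the data) and -0.18 at summits with no repeat base. For DRACH the tissue difference was 0.0035 points. Without regions within 10 kb past a gene end, 91 and 12 tissue calls, 62 and 11 age counts and 1 F1r region were left. Requiring 50% of the region to be covered gave 80 cerebrum calls and 1 F1i region, leaving out copies 17 cerebellum calls, a −log10 q of at least 5 gave 1 F1r region, and P7 alone 0 tissue calls. Leaving out a library gave 89 to 194 cerebrum and 14 to 35 cerebellum calls, and leaving out a pair 0 to 2 F1r regions. No share over all regions stands beside the counts in this paragraph, so they do not show whether other regions changed alike. The share within 10 kb past a gene end was 51.9% for regions in at least 2 lists and 32.9% for ends of protein-coding genes, and 41.5% and 73.1% with limits of 5 and 50 kb. The causes of these changes were not tested.

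Presence in a list depends on depth and on the peak caller's threshold, so absence does not mean that a region lacked m6A. Reads were placed once, which leaves regions of mapping quality 0 uncertain, and tissue and preparation batch cannot be told apart.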
